A study of Homo sapiens with 4 samples.

Results

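The 10 genes described here belong to transforming growth factor beta (TGF-beta) signalling and to the inhibitor of DNA binding (ID) family, and were followed in NCI-H460, an established line of human non-small cell lung cancer. They were taken by symbol from the 26364 genes of the deposited count tables: the ligands TGFB1 and TGFB2, the receptors TGFBR1 and TGFBR2, the transducer SMAD3, the inhibitors SMAD7 and SKIL, the target TGFBI, and ID1 and ID3. All 10 passed the filter on low counts (at least 1 CPM in at least 2 libraries; CPM scales counts to library size), as did 13378 genes in all. The 4 groups were DZNep after 4 Gy, DZNep after 0 Gy, DMSO after 4 Gy and DMSO after 0 Gy of gamma radiation, with 1 library each. DZNep (3-deazaneplanocin A, 2 uM) or its solvent DMSO was given after the radiation step for 48 h. DZNep blocks the hydrolysis of S-adenosylhomocysteine and so slows cellular methylation reactions. All libraries come from 1 cell line, no label says that they are separate cultures, and no group has a replicate.

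As background, TGF-beta ligands are secreted in latent form and bind TGFBR2, which recruits and phosphorylates TGFBR1. The active receptor phosphorylates SMAD2 and SMAD3, which enter the nucleus with SMAD4 and switch target genes. SMAD7 blocks the receptor, SKIL (SnoN) represses SMAD targets in the nucleus, and both are themselves induced by the pathway as feedback. ID proteins lack a DNA-binding domain and hold the E proteins TCF3, TCF4 and TCF12 away from E box sequences. ID genes are classic targets of bone morphogenetic protein (BMP) signalling, and TGF-beta can raise or lower them depending on the cell. In lung cancer cells the pathway is known for growth arrest and for loss of epithelial character.

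The starts of 4 genes are shown because these had the largest DZNep rises among the 10. Each is a RefSeq window of 300 bases, with 250 before and 50 after the first listed start, on GRCh38.p14. The count tables carry no coordinates, and the submitters' processing notes name hg19. Capitals mark CAGAC, the short box that SMAD3 and SMAD4 bind, and the E box CANNTG, searched on both strands.
TGFB2 promoter, GRCh38.p14 chr1:218345086-218345385, plus strand: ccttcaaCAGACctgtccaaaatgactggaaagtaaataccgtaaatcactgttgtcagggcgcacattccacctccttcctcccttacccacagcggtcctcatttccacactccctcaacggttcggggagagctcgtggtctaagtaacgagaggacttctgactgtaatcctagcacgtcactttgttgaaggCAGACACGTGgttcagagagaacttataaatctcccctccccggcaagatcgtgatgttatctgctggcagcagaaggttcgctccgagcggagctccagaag
TGFBR2 promoter, GRCh38.p14 chr3:30606106-30606405, plus strand: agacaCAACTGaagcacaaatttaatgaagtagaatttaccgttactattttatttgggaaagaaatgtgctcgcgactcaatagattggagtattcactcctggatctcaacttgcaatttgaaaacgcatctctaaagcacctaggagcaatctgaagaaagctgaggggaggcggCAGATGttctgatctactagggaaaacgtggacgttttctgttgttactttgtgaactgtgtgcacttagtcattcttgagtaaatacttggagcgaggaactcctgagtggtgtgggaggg
ID1 promoter, GRCh38.p14 chr20:31605039-31605338, plus strand: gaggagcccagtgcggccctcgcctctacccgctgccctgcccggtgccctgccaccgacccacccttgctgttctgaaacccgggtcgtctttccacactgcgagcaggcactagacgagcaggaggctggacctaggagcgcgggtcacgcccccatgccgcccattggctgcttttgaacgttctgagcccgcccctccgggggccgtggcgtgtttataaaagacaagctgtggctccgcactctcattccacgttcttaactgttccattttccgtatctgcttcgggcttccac
ID3 promoter, GRCh38.p14 chr1:23559452-23559751, minus strand: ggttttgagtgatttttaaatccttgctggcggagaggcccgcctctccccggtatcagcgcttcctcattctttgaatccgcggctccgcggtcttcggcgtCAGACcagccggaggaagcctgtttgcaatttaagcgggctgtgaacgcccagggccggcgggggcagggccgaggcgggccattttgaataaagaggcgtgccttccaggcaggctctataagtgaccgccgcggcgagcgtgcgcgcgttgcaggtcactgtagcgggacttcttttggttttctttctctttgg

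In these windows TGFB2 held CAGAC at -243 and -53, counted from the start, and an E box at -49 that overlaps the second CAGAC. TGFBR2 held E boxes at -245 and -72 and no CAGAC, ID3 held CAGAC at -147, and ID1 held neither motif. CAGAC was in 6 of the 10 first windows, against 45% of 27305 promoters of the same length, and CANNTG in 4, against 68.9%. The core TGACG bound by CREB-type factors was in 3 (25% of all promoters), and the palindrome GGCGCC, a GC-rich SMAD motif, also in 3 (19%). These short motifs are common, and a match is not a bound site.

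The libraries held 116234177 and 128255695 counts for DZNep at 4 and 0 Gy, and 112461380 and 136594350 for DMSO at 4 and 0 Gy. Keratin genes of simple epithelium were abundant (KRT8 at 709.97 to 2052 CPM, KRT18 at 634.04 to 2073 CPM), and both rose with DZNep (1.35 and 1.58 on the log2 scale). KRT19 had 178 and 146 CPM in DZNep at 4 and 0 Gy, against 248 and 154 CPM in DMSO, and did not pass (-0.275). The epithelial marker EPCAM had 5 and 22 counts in DZNep at 4 and 0 Gy, against 50 and 68 counts in DMSO. EPCAM and CDH1 were at 0.492 CPM or less, and the lung lineage genes NKX2-1, SFTPB and NAPSA at 0.141 CPM or less, so the counts show an epithelial keratin programme without lung lineage markers. The endothelial markers PECAM1, VWF and CDH5 reached 0.379 CPM at most and the blood markers PTPRC and CD3E 0.0579 CPM at most, with CDH5, PTPRC and CD3E each at 0 in 3 libraries, while CD14 stood at 7.34 to 9.86 CPM. The 5 fibroblast markers summed to 29.05 and 22.7 CPM in DZNep at 4 and 0 Gy and to 37.4 and 27.97 CPM in DMSO at 4 and 0 Gy, with DCN at 0 in DZNep 0 Gy. Of their 3 tested members COL1A1 (-0.542) and COL3A1 (-0.737) fell with DZNep on the log2 scale, and PDGFRB (0.401) did not pass. The part of these marker shifts in the results was not tested.

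Levels of different genes are compared here per length, as TMM-scaled CPM per kilobase of all annotated exons merged (GENCODE 29). TGFBI, a secreted matrix protein, ranged from 109 to 219.5 CPM per kilobase over the 4 libraries, ID1 from 56.999 to 197 and ID3 from 58.6 to 145. SMAD3 ranged from 16.2 to 34.0, TGFB2 from 12.7 to 32.3, TGFBR1 from 15.1 to 27.9 and TGFB1 from 18.5 to 22.6 CPM per kilobase. TGFBR2 (1.73 to 3.97), SKIL (1.26 to 2.09) and SMAD7 (0.368 to 0.695) were the scarce ones. These ranges fell into 4 blocks that did not overlap: TGFBI with both ID genes, then SMAD3 with TGFBR1 and both ligands, then TGFBR2 with SKIL, then SMAD7. Within a block the ranges overlapped. TGFBR2 still exceeded SKIL and SMAD3 exceeded TGFBR1 in each of the 4 libraries with either measure of length, while the order of the other pairs within a block differed between libraries or with the length used. TGFBR1 was 5.58 and 4.14 times TGFBR2 in DZNep at 4 and 0 Gy, and 12.0 and 8.73 times in DMSO at 4 and 0 Gy, per kilobase. The order of the ligands differed between the drug groups, with TGFB2 at 1.56 and 1.68 times TGFB1 in DZNep at 4 and 0 Gy and at 0.917 and 0.561 times in DMSO. With the length of the longest transcript instead, those ratios were 1.36 and 1.46 in DZNep and 0.799 and 0.489 in DMSO. ID1 stood at 1.26 and 1.55 times ID3 in DZNep and at 0.731 and 1.35 times in DMSO, an order that the length decides in DZNep 4 Gy and DMSO 0 Gy (0.879 and 0.939 with the longest transcript).

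**Figure D1:**
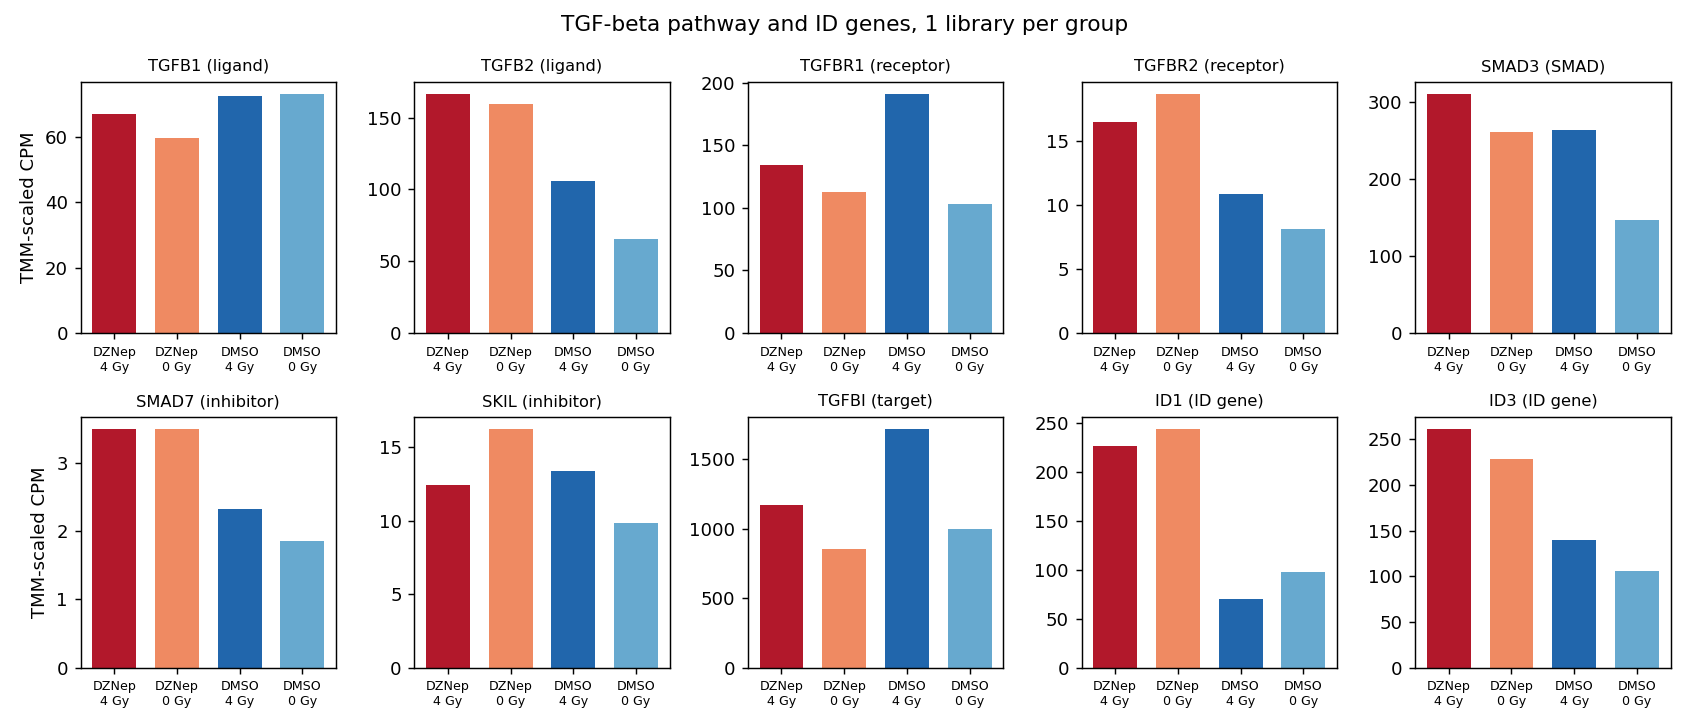
TMM-scaled CPM of the 10 genes, 1 panel each with its own axis from 0; each bar is 1 library, with no replicate and no error bar. TGFB2, TGFBR2, SMAD7, ID1 and ID3 stand higher in both DZNep libraries than in either DMSO library, and DMSO 0 Gy is the lowest library for 7 of the 10.

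DZNep was accompanied by higher TGFB2, TGFBR2, SMAD3, ID1 and ID3, while TGFB1, TGFBR1 and TGFBI had estimates below 0 that did not pass the test. Of the 10 genes, 5 rose and 0 fell at an adjusted p of 0.05, against 10.8% of all 13378 tested genes that rose and 12.3% that fell (23.1% in either direction). At an unadjusted p under 0.05, 6 were higher and 1, TGFBI, was lower, against 16.7% and 19.3% of all tested genes. DESeq2 also called 5 rises and 0 falls, against 9.96% and 10.3% of all genes. The median log2 fold change of the 10 was 0.64, against -0.015 over all tested genes. The effect was tested over all 4 libraries with edgeR's quasi-likelihood test, with dose as an additive term and Benjamini-Hochberg adjustment over all tested genes. With 1 library a group, an interaction of drug and dose would enter the error term, and the p-values say nothing of variation between cultures.

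ID1 differed most between drug groups. It stood at 226 and 243 CPM in DZNep at 4 and 0 Gy, against 70.3 and 97.6 CPM in DMSO at 4 and 0 Gy. The DZNep libraries were both above the DMSO libraries, and the additive model put the log2 fold change at 1.50 (SE 0.16, adjusted p = 4.6e-05). ID3 stood at 261 and 228 CPM in DZNep at 4 and 0 Gy, against 140.1 and 105 CPM in DMSO. It rose by 1.01 (SE 0.15, adjusted p = 0.000532), again with no overlap between the drug groups.

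Among the ligands, TGFB2 rose and TGFB1 did not pass the test. TGFB2 had 166 and 159.7 CPM in DZNep at 4 and 0 Gy, against 106 and 65.2 CPM in DMSO. Its rise on the log2 scale was 0.97 (SE 0.18, adjusted p = 0.00208), and the drug groups did not overlap. TGFB1 had 67.2 and 59.8 CPM in DZNep, against 72.8 and 73.2 CPM in DMSO (-0.203, SE 0.15, adjusted p = 0.375). Its values were the tightest of the 10, at 1.22-fold between the highest and the lowest library, and both DZNep values lay below both DMSO values. The non-coding TGFB2-OT1 lies within the TGFB2 transcript on the same strand and had 278 to 602 counts a library, so reads of the 2 cannot be told apart there. TGFB1 overlaps HNRNPUL1 on the opposite strand over 215 bases and SMAD3 overlaps a non-coding gene, AC087482.1, over 182 bases, and the use of strand in counting is not given in the sources used here.

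Of the receptors, TGFBR2 rose and TGFBR1 did not pass. TGFBR2, the receptor that binds the ligand first, had 16.5 and 18.7 CPM in DZNep at 4 and 0 Gy, against 10.9 and 8.13 CPM in DMSO (0.901, SE 0.202, adjusted p = 0.00711). TGFBR1, the kinase that acts on SMAD proteins, had 134 and 113 CPM in DZNep, against 191 and 103 CPM in DMSO (-0.192, SE 0.173, adjusted p = 0.455). Its DMSO 4 Gy library stood above the other 3, and the drug groups overlapped.

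SMAD3 had 310.3 and 262 CPM in DZNep at 4 and 0 Gy, against 264 and 147 CPM in DMSO. It passed the test (0.53, SE 0.17, adjusted p = 0.0356), although the drug groups overlapped: the DMSO 4 Gy library lay within the DZNep range, and DMSO 0 Gy lay well below the other 3. SMAD7 was scarce, at 3.496 and 3.49 CPM in DZNep against 2.32 and 1.85 CPM in DMSO, from 256 to 451 counts a library. Its drug groups did not overlap, and it did not pass (0.75, SE 0.29, adjusted p = 0.0787). SKIL had 12.4 and 16.2 CPM in DZNep, against 13.4 and 9.84 CPM in DMSO, with overlap (0.310, SE 0.22, adjusted p = 0.332). TGFBI had 1170.1 and 854 CPM in DZNep, against 1714 and 997 CPM in DMSO, also with overlap (-0.387, SE 0.14, adjusted p = 0.0573).

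Both DZNep libraries lay above both DMSO libraries for 5 of the 10 genes (TGFB2, TGFBR2, SMAD7, ID1 and ID3) and below them for TGFB1. Over all tested genes those shares were 26.3% above and 27.8% below, so such separation was common. The DZNep over DMSO ratio had the same direction at both doses for 8 of the 10 genes (6 higher, 2 lower), against 74.2% of all tested genes. With drug as the lone factor, ID1 and ID3 still passed and the other three did not, against 2.65% of all genes that rose and 2.74% that fell. In that same model, leaving out DZNep 4 Gy, DZNep 0 Gy or DMSO 0 Gy left 1 call, that of ID1, and leaving out DMSO 4 Gy left all 5. All genes that rose made up 0.931%, 1.18%, 2.33% and 4.00% there, in the order of those libraries.

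**Figure D2:**
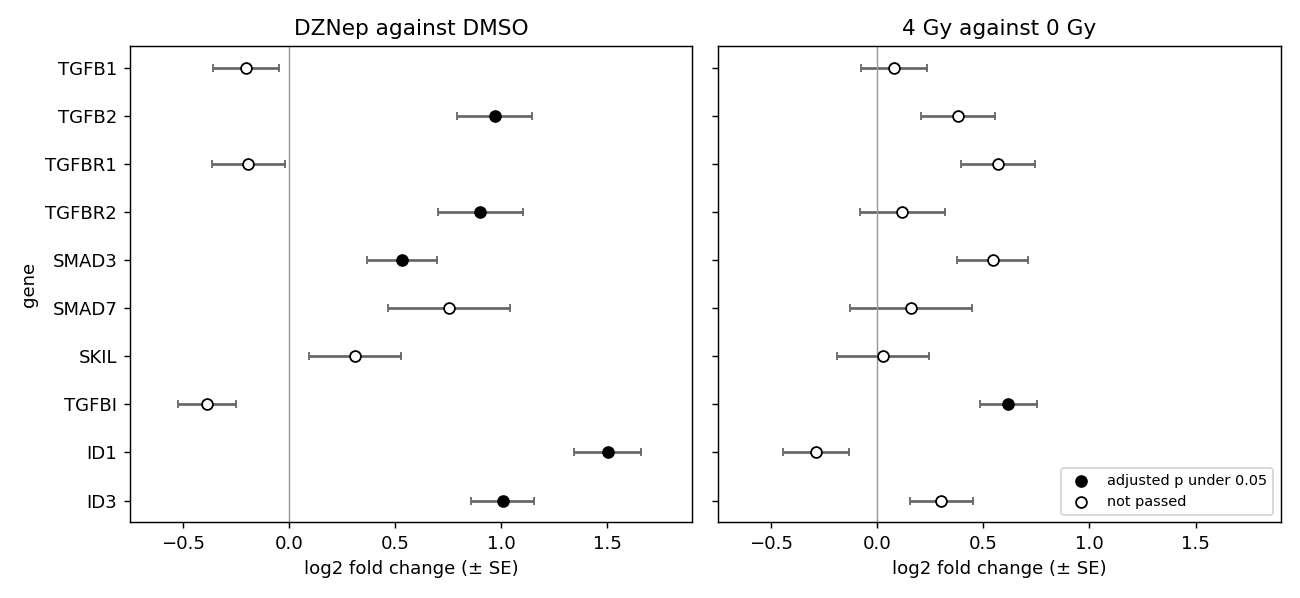
Log2 fold changes of the 10 genes from the additive model over 4 libraries, with the standard error as bars; filled points passed at an adjusted p of 0.05. DZNep against DMSO has 5 filled points, from 0.53 (SMAD3) to 1.50 (ID1), and 4 Gy against 0 Gy has 1, TGFBI at 0.62.

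Library by library, ratios have no replicate check, and their intervals (exact conditional binomial, 95%) cover counting error only. The cut of 10 CPM used here applies to the higher of the 2 libraries compared. At 0 Gy, 4 of the 9 genes at 10 CPM or more were at least 2-fold higher in DZNep than in DMSO, against 3.61% of 8149 genes higher and 3.61% lower. These were ID1 (log2 ratio 1.32, interval 1.29 to 1.35), TGFB2 (1.29, 1.26 to 1.33), TGFBR2 (1.20, 1.10 to 1.30) and ID3 (1.12, 1.09 to 1.14). At 4 Gy only ID1 was past that fold, at 1.69 (1.65 to 1.72), against 3.19% of 8212 genes higher and 3.92% lower. ID3 stood at 0.898, TGFB2 at 0.647 and TGFBR2 at 0.601 there, so among these 4 genes ID1 alone had its larger DZNep ratio after radiation. With both treatments against neither, 5 of 9 were at least 2-fold higher, against 5.96% of 8244 genes higher and 4.61% lower: TGFB2 (1.35), ID3 (1.31), ID1 (1.21), SMAD3 (1.07) and TGFBR2 (1.02). With plain library sizes TGFBR2 stood at 0.970, under 2-fold, and the others stayed past it. TGFBR2 had 8.13 CPM in DMSO 0 Gy, against 18.7 CPM in DZNep 0 Gy and 16.5 CPM in DZNep 4 Gy. It met the 10 CPM cut at 0 Gy and with both treatments only through the DZNep library, so its place there gives no support. The comparisons at 0 Gy and of both treatments share the DMSO 0 Gy library.

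Radiation was accompanied by higher TGFBI, which passed the test, while TGFBR1 and SMAD3 had estimates above 0 that did not pass. In the same model, 1 of the 10 genes rose after 4 Gy and 0 fell, against 2.17% and 0.897% of all tested genes (3.06% in either direction; 2.72% and 2.10% with plain library sizes). At an unadjusted p under 0.05, 3 were higher and 0 lower, against 11.4% and 9.13% of all tested genes. DESeq2 called 1 rise and 0 falls, against 3.48% and 1.66% of all genes. The median log2 fold change of the 10 was 0.231, against 0.00689 over all tested genes. TGFBI stood at 1170.1 and 1714 CPM at 4 Gy with DZNep and DMSO, against 854 and 997 CPM at 0 Gy, with no overlap between doses (0.62, SE 0.14, adjusted p = 0.0329).

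TGFBR1 stood at 134 and 191 CPM at 4 Gy with DZNep and DMSO, with 113 and 103 CPM at 0 Gy (0.57, SE 0.17, adjusted p = 0.0890). SMAD3 stood at 310.3 and 264 CPM at 4 Gy, with 262 and 147 CPM at 0 Gy (0.54, SE 0.17, adjusted p = 0.0886). For both genes the doses did not overlap, and for SMAD3 the nearest values were those of DMSO 4 Gy and DZNep 0 Gy. With TGFBI these made 3 of 10 genes whose 4 Gy values both lay above both 0 Gy values, against 15.8% of all tested genes, and 0 lay below (17.1%). The ligand TGFB2 (0.38, SE 0.17, adjusted p = 0.243) and ID3 (0.30, SE 0.15, adjusted p = 0.271) did not pass. ID1 had the only negative estimate (-0.289, SE 0.15, adjusted p = 0.316). TGFB1, TGFBR2, SMAD7 and SKIL had estimates between 0.0265 and 0.161. With dose as the lone factor over all 4 libraries TGFBI did not pass, but neither did any other tested gene, so that fit cannot single out TGFBI. With 1 library left out its estimate ran from 0.324 to 0.888.

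In DMSO the radiation ratios were larger than in DZNep for most of the 10 genes. TGFBR1 had a 4 Gy over 0 Gy log2 ratio of 0.252 (interval 0.219 to 0.285) in DZNep and 0.885 (0.855 to 0.916) in DMSO. SMAD3 had 0.245 (0.223 to 0.267) in DZNep and 0.84 (0.82 to 0.87) in DMSO, and TGFB2 had 0.0571 (0.0285 to 0.0856) and 0.702 (0.663 to 0.742). TGFB2 was thus nearly level after radiation in DZNep, and TGFBR1 and SMAD3 kept a smaller positive ratio there, as the plot of the radiation ratios shows. None of the 9 genes at 10 CPM or more reached 2-fold in either drug group, against 0.851% of 7992 genes higher and 0.200% lower in DZNep, and 2.06% of 8099 higher and 0.988% lower in DMSO.

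SKIL, the nuclear repressor, had -0.386 (-0.485 to -0.288) in DZNep and 0.441 (0.335 to 0.549) in DMSO, and TGFBR2 had -0.179 (-0.267 to -0.0913) and 0.420 (0.303 to 0.539). These ratios had opposite signs in the drug groups. TGFBI had 0.454 in DZNep and 0.78 in DMSO, ID3 had 0.193 and 0.410, and SMAD7 had 0.00234 and 0.321. ID1 went the other way, with -0.106 (-0.130 to -0.0820) in DZNep and -0.473 (-0.514 to -0.433) in DMSO. TGFB1 had 0.167 and -0.00795, the DMSO value with an interval that spans 0 (-0.0502 to 0.0343). The sign was the same in both drug groups for 7 of the 10 genes (6 higher, ID1 lower), against 65.7% of all tested genes. SMAD7 is among the 6, although the interval of its DZNep ratio spans 0 (-0.196 to 0.200). With plain library sizes that ratio was -0.0418.

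The difference of these ratios, DZNep minus DMSO, was below 0 for 8 of the 10 genes, against 49.6% of all tested genes, and its median was -0.463, against 0.00383. It ran from -0.827 (SKIL) through -0.645 (TGFB2) and -0.633 (TGFBR1) to 0.367 (ID1). With 1 library a group this difference has no error estimate and was not tested. DMSO 0 Gy was the lowest of the 4 libraries for 7 of the 10 genes, against 25.9% of all tested genes. DZNep 0 Gy was lowest for 2 (25.1%), DMSO 4 Gy for 1 (24.9%) and DZNep 4 Gy for 0 (24.1%). A low value in that library raises both the DZNep ratio at 0 Gy and the radiation ratio in DMSO, so the 2 patterns are not independent. For TGFB2 the single ratios summed to 1.99, and the library with both treatments stood 1.35 above DMSO 0 Gy on the log2 scale.

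**Figure D3:**
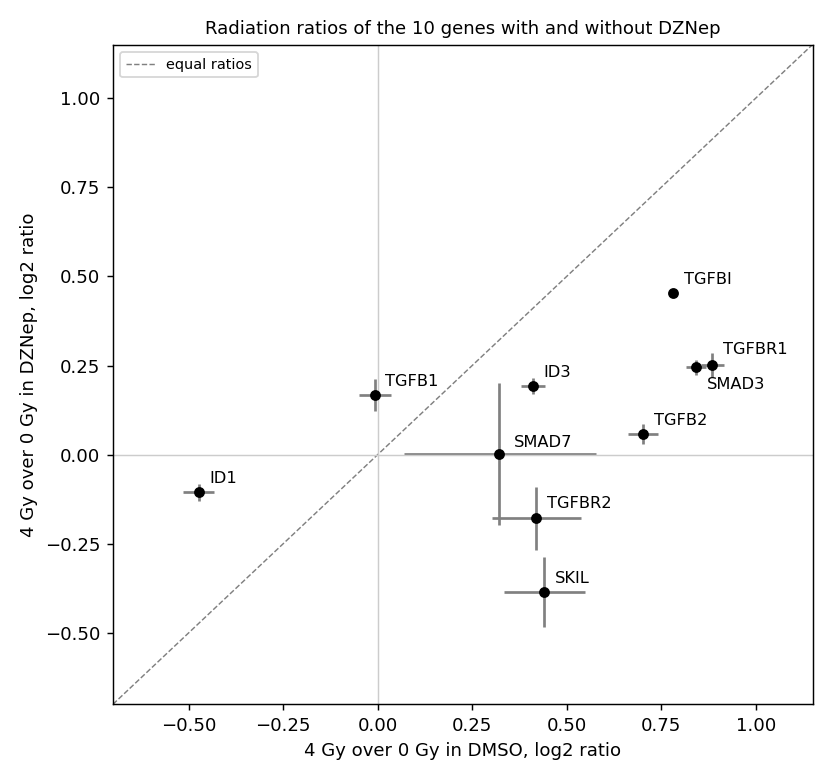
Log2 ratio of 4 Gy over 0 Gy in DZNep (vertical) against that in DMSO (horizontal) for the 10 genes; bars are 95% counting intervals and the dashed line marks equal ratios. The 8 genes other than TGFB1 and ID1 lie below the line, with SKIL at -0.386 in DZNep and 0.441 in DMSO.

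Around the 10 genes, 64 others of the pathway were listed by role, and 52 of them were tested: 17 rose and 2 fell with DZNep, 2 rose and 0 fell with radiation, and 12 lacked enough counts. Over all tested genes 10.8% rose and 12.3% fell with DZNep, and 2.17% rose and 0.897% fell with radiation, so the radiation count was close to that share. The median of the 52 was 0.248 with DZNep and 0.102 with radiation. INHBA, BAMBI and TAGLN, counted among the 17, passed the filter on low counts only through the DZNep libraries, where they were high. Among 11 ligands and extracellular controllers 5 rose and 1 fell with DZNep. THBS1, a matrix protein that releases latent TGF-beta, had 31.4 and 23.1 CPM in DZNep at 4 and 0 Gy, against 4.75 and 2.395 CPM in DMSO (2.99, SE 0.21). LTBP1, which holds latent TGF-beta in the matrix, had 67.7 and 81.4 CPM against 19.9 and 13.1 CPM (2.20, SE 0.21). The activin subunit INHBA (2.37, SE 0.35) and the ligand BMP2 (2.32, SE 0.299) also rose. INHBA had 3.26 and 2.65 CPM in DZNep at 4 and 0 Gy, against 0.802 and 0.398 CPM in DMSO, so its call gives no support. FSTL3 (0.81, SE 0.17) rose as well and FST (-0.958, SE 0.16) fell, both antagonists of activin.

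Among 9 other receptors and co-receptors, BAMBI, a decoy receptor (1.25, SE 0.34, at 0.695 to 1.98 CPM), and TGFBR3, the co-receptor betaglycan (1.04, SE 0.17), rose with DZNep. BAMBI passed the filter only through the DZNep libraries, with 0.695 and 0.803 CPM in DMSO at 4 and 0 Gy, so its call gives no support. Of 6 other SMADs only SMAD6, the inhibitor of BMP signalling, passed, and it fell (-0.956, SE 0.25). It had 2.88 and 3.12 CPM in DZNep, against 5.14 and 6.58 CPM in DMSO, whereas the values of the related inhibitor SMAD7 were higher with DZNep. SMAD2 (0.41, SE 0.15, adjusted p = 0.0645) and SMAD4 (-0.177, SE 0.17, adjusted p = 0.494), the partners of SMAD3, did not pass. Of 11 SMAD regulators only the ubiquitin ligase gene NEDD4L rose (0.55, SE 0.14). Over all tested genes 10.8% rose and 12.3% fell with DZNep, so the few calls in these lists are not read as a result about them.

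Of 11 tested genes known as targets of TGF-beta, 8 rose and 0 fell with DZNep, with a median of 0.865, against 10.8% and 12.3% of all tested genes and a median of -0.015 over them; ANGPTL4, COL4A1 and ADAM19 had values below 0 and did not pass. The largest rises were those of the AP-1 subunit gene JUNB (1.59, SE 0.17), the hormone gene PTHLH (1.36, SE 0.17), the matricellular factor gene CTGF (1.24, SE 0.24) and the actin-binding gene TAGLN (1.21, SE 0.37). Many of these respond to other signals too. TAGLN had 1.95 and 1.08 CPM in DZNep at 4 and 0 Gy, against 0.606 and 0.651 CPM in DMSO. It passed the filter only through the DZNep libraries, so its call gives no support. TGFBI thus differed in sign from most of the list under the drug. LTBP3, another latent TGF-beta binding protein, was the listed gene outside the ID family that rose with radiation (0.76, SE 0.15, adjusted p = 0.0229). PMEPA1, a feedback inhibitor, stood at 82.4 and 107.96 CPM at 4 Gy with DZNep and DMSO, against 58.5 and 66.1 CPM at 0 Gy, and did not pass (0.601, SE 0.16, adjusted p = 0.0543). Its DZNep estimate was below 0 and did not pass either (-0.282, SE 0.155, adjusted p = 0.213).

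ID2 moved like its relatives under the drug. It had 133.6 and 95.2 CPM in DZNep at 4 and 0 Gy, against 73.9 and 40.6 CPM in DMSO, a rise of 1.04 (SE 0.16, adjusted p = 0.000762). It also rose with radiation (0.676, SE 0.16, adjusted p = 0.0435), whereas ID1 and ID3 did not pass. ID4 had 36 and 42 counts in DZNep and 13 and 2 counts in DMSO, too few to be tested. The E protein genes TCF3 (-0.0521, SE 0.1597), TCF4 (0.41, SE 0.15) and TCF12 (0.29, SE 0.15) did not pass with DZNep. FST, FSTL3, LTBP3, SMAD2, SMAD4, PMEPA1, ANGPTL4, COL4A1, ADAM19 and the E protein genes were named after their values were seen.

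**Figure D4:**
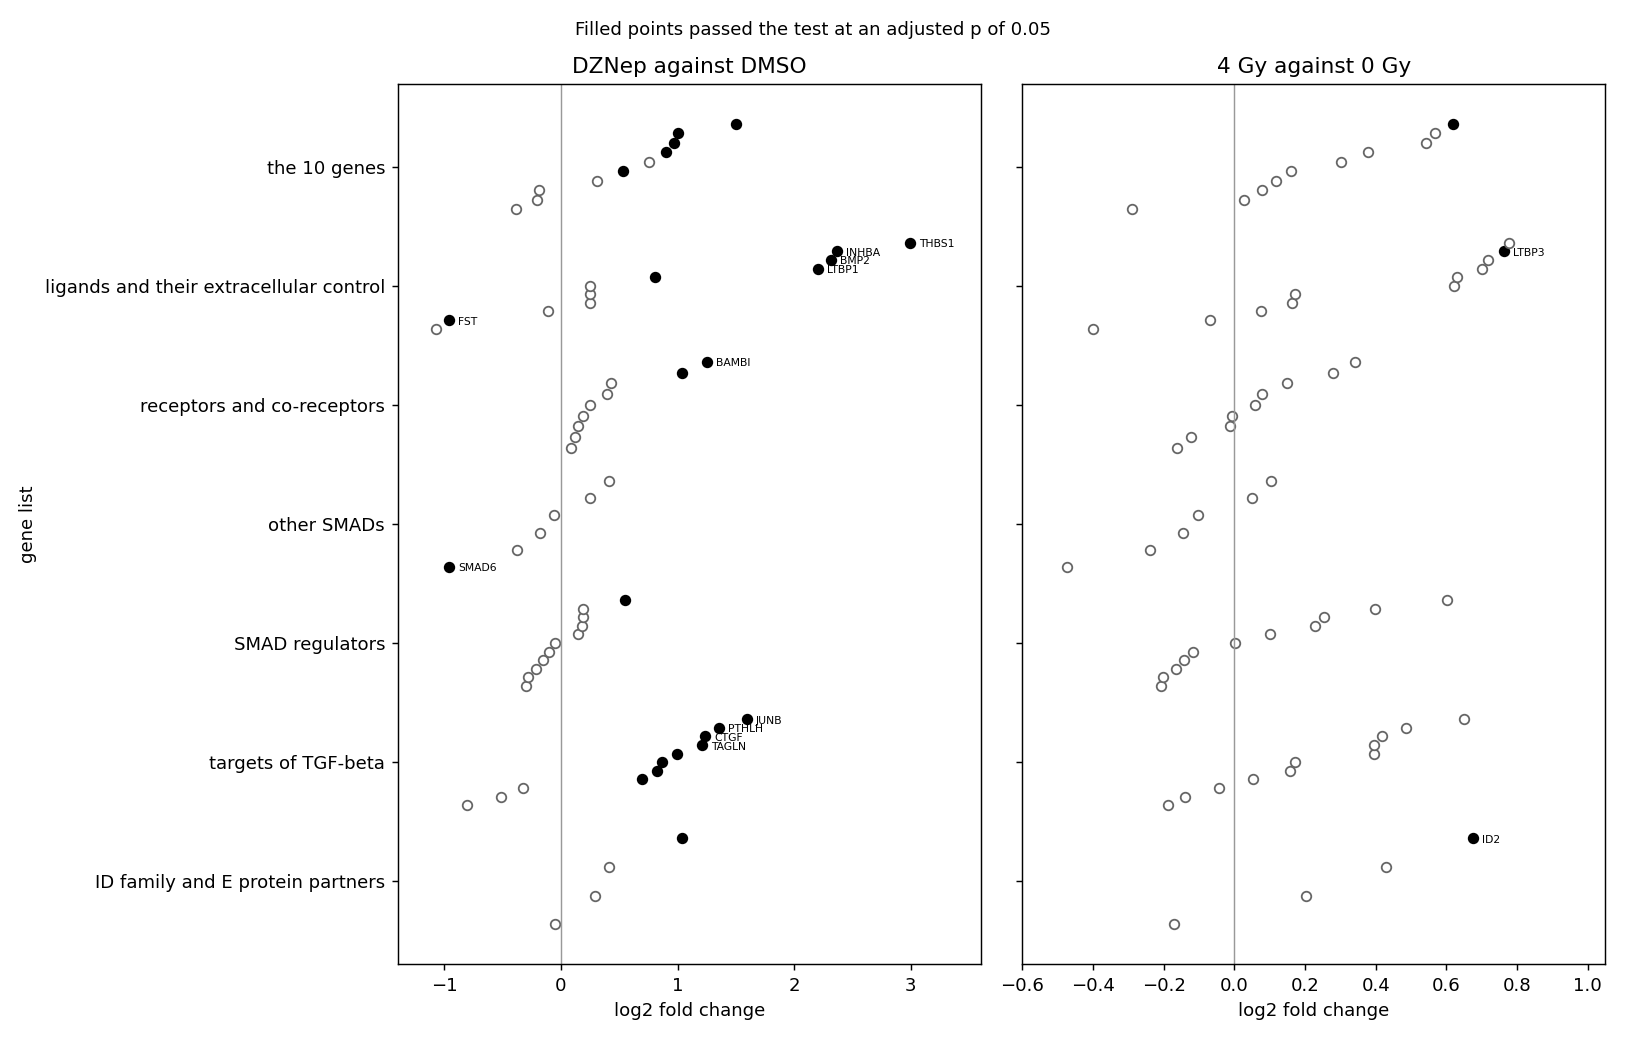
Log2 fold changes of the 10 genes and of the tested genes in 6 lists by role, each point a gene spread vertically by rank; filled points passed at an adjusted p of 0.05 in the additive model. The targets of TGF-beta have 8 filled points to the right of 0 under DZNep, and radiation has LTBP3 and ID2 filled beside TGFBI. Under DZNep the filled points of INHBA, BAMBI and TAGLN are genes that passed the filter on low counts only through the DZNep libraries.

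The genes closest in pattern to the 3 most variable of the 10 were found among 7779 genes at a mean of 10 CPM or more. Likeness was the root mean square difference of mean-centred log2 CPM over the 4 libraries. Nearest to ID1 were AK6 (0.0797), the tetraspanin gene CD9 (0.0812) and TFR2 (0.108). AK6 shares its locus with TAF9, so its count is uncertain. Nearest to TGFB2 were CPS1 (0.0382), the phosphatase gene DUSP4 (0.0385) and MYL9 (0.0519). Nearest to ID3 were APBB3 (0.0383), FHL1 (0.0391) and the kinase gene SGK1 (0.0405). Within 0.2 of the pattern lay 15 genes for ID1, 177 for TGFB2 and 223 for ID3, so of these 3 genes ID1 had the fewest near it. The measure counts the size of a change as well as its shape. ID1 also had the widest log2 range, at 1.79, against 1.35 for TGFB2 and 1.31 for ID3.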

How the data were processed

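Per the labels' protocols, Trizol RNA of NCI-H460 cells went into 4 Lexogen SENSE mRNA libraries. The deposited values are whole-number counts by gene symbol, not normalized, with a table for each library. TopHat, edgeR and hg19 are named in the submitters' processing notes. The sources used here do not give versions, the counting program, the annotation or the strand setting. Even values made up 55.9% to 58.1% of counts from 1 to 59, and if reads were counted in pairs, which was not tested, the counting intervals are too narrow.

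Counts were scaled by TMM in edgeR 4.0.16 (R 4.3.3), and CPM refer to the counts of tested genes. The additive model has 1 residual degree of freedom, 11.5 prior ones, and its common biological coefficient of variation is 0.163. SE is the log2 fold change over the root of F. Ratios of 2 libraries used a prior count of 2. The fit was checked on simulated counts with known changes in the DZNep effect. It recovered 76% of 2-fold and 100% of 4-fold changes, with 7 false calls among 183. Only 100 of 13205 genes were changed at each fold, and radiation called 0 there. The data gave 3086 DZNep calls and 410 radiation calls, so these rates need not hold for them.

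The 10 genes and the lists were chosen with earlier results of these data known, and 1 gene of a list is not reported here. Of each list, up to 4 called genes with the largest change were named, with ID2 and ID4, and for the 3 genes with the widest log2 CPM range the 3 genes nearest in pattern. Alternatives were RLE, plain library sizes, no filter, a 10 CPM filter, DESeq2 1.42.0, halved counts, 1-factor models, each library left out, a prior count of 0.5 and the longest transcript as length.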

Additional observations from a re-analysis of the deposited data

Results flagged for a closer look

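Opposite directions in the drug or dose groups drew attention to 3 of the 10 genes, each with counting intervals off 0 on both sides. None of these differences was tested, because every group is 1 library. The radiation log2 ratio of SKIL in DZNep minus that in DMSO was -0.827, and that of TGFBR2 was -0.599. The DZNep log2 ratio of TGFBR1 was -0.509 at 4 Gy and 0.125 at 0 Gy, a difference of -0.633. Its DMSO 4 Gy library, at 191 CPM, was the highest of the 4, against 134 CPM in DZNep 4 Gy, 113 CPM in DZNep 0 Gy and 103 CPM in DMSO 0 Gy.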

How the results depend on the processing

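With RLE scaling, DESeq2 and halved counts, the DZNep effect called 5 of the 10 genes and the radiation effect 1, as in the model reported. Of all tested genes, DZNep called 23.7%, 20.2% and 23.3% there, and radiation 4.34%, 5.14% and 3.32%. Plain library sizes and the 10 CPM filter added TGFBI as a fall with DZNep (adjusted p = 0.0441 and 0.0425), where DZNep called 24.4% and 30.5% of all tested genes. Without a filter those shares were 12.2% with DZNep and 0.900% with radiation. Without a filter SMAD3 was lost (adjusted p = 0.065) and radiation called 0 of the 10 (3 at an unadjusted p under 0.05; DESeq2, with the filter, called 1), while with the 10 CPM filter, which leaves out SMAD7, radiation called 3 (TGFBI, TGFBR1 and SMAD3, against 12.9% of 7997 genes). In 1-factor models DZNep called 2 (ID1 and ID3) and radiation 0, with 0 at an unadjusted p under 0.05. Leaving out 1 library at a time, in 1-factor models because the additive one then has no residual degree of freedom, gave 1 to 5 DZNep calls and 0 to 0 radiation calls, with 0 to 3 at an unadjusted p under 0.05. Over all tested genes, DZNep calls were 3086, 721 in the 1-factor model and 290 to 842 with a library left out. Radiation calls were 410, against 199 without a filter, 645 with plain library sizes, 661 with DESeq2, 1031 with the 10 CPM filter and 0 in the 1-factor models. In the model reported, 11.4% of all tested genes were higher and 9.13% lower with radiation at an unadjusted p under 0.05. That share is not given for the other fits, so their counts at that cut are not read further. The cause of these changes was not tested. Scaling shifted the median of all genes by -0.0323 to 0.0127 on the log2 scale. With plain library sizes, some 2-library ratios of the 10 genes left their counting intervals. These were 6 of the radiation ratios in DZNep, 1 in DMSO, 3 of the DZNep ratios at 4 Gy and 7 of both treatments against neither. All 10 DZNep ratios at 0 Gy stayed inside. No paired analysis was possible because each group holds 1 library.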

Other observations

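Several listed genes of the pathway, chosen after their values were seen, had low counts; 3 counts correspond here to 0.0217 to 0.0267 CPM. GREM1, a BMP antagonist, had 0 counts in all 4 libraries. CDKN2B, a cell cycle inhibitor gene known as a TGF-beta target, had 2 and 8 counts in DZNep at 4 and 0 Gy and 0 in both DMSO libraries. CHRD, an antagonist of BMP ligands, had 50 and 70 counts in DZNep at 4 and 0 Gy, against 0 and 25 in DMSO. BMP4 had 102 and 54 counts in DZNep at 4 and 0 Gy, against 5 and 33 in DMSO, so its order with dose differed between the drug groups. The third TGF-beta ligand gene, TGFB3, passed the filter at 0.96 to 1.93 CPM and did not pass the test for either effect.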
